A study of Mus musculus with 9 samples.

Results

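The genes described here are the cytosolic translation factors of the mouse together with a set of nucleolar ribosome assembly genes, the recycling factor Abce1 and Myc. They were taken by name from a table of 24062 named genes: 67 gene symbols that begin with Eif1 to Eif6, Eef1 or Eef2, leaving out Eif2ak2 and Eif4ebp1, and 14 genes added by name (Abce1, Ncl, Npm1, Fbl, Nop56, Nop58, Dkc1, Nolc1, Wdr12, Bop1, Pes1, Rrs1, Polr1b and Myc). This gives 81 members, of which 70 passed the filter on low counts. The naming rule uses no measured value, but the set was proposed with earlier results of these data known.

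RNA was sequenced in 9 libraries, with 3 replicates in each of 3 sorted populations. All cells began as naive CD4+ T cells from the spleens of male dual reporter F1 mice, 6 to 10 weeks old, heterozygous for a transgenic GFP reporter of the Th17 lineage and for a Foxp3-IRES-mRFP knock-in reporter, and all were stimulated with anti-CD3 and anti-CD28 beads for 3 days (72 hours). DP cells, positive for GFP and Foxp3-RFP, and SPR cells, positive for GFP alone, were sorted from the Th17 culture, with IL6 (20 ng/ml) and TGFβ (5 ng/ml) in the medium. SPF cells, positive for Foxp3-RFP alone, were sorted from the Treg culture, with IL2 (5 ng/ml) and TGFβ (10 ng/ml). In each comparison with SPF the sorted population, the cytokine and the TGFβ dose therefore differ together and cannot be told apart. The GFP reporter is a transgene and not a knock-in.

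Translation starts when eIF2 brings the initiator tRNA to the small ribosomal subunit, held there with eIF1, eIF1A, eIF3 and eIF5, while the eIF4 factors bind the mRNA cap and unwind the leader. The eEF1 and eEF2 factors then carry the ribosome along the message, and ABCE1 splits it into subunits after termination. New ribosomes are assembled in the nucleolus, where RNA polymerase I makes the rRNA precursor and small nucleolar ribonucleoproteins modify it. MYC is known to drive many of these genes, and both programmes are known to expand when T cells are activated.

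MARS-seq reads polyadenylated transcripts near their 3′ ends, and the libraries held 1495152 (DP 3) to 3759662 (SPR 3) counts. Values are given as CPM, the counts scaled to a common library total, so 1 count is worth 0.266 to 0.669 CPM. Foxp3 stood at 130, 77.2 and 93.6 CPM in DP, 7.33, 7.32 and 6.38 CPM in SPR and 232, 244 and 209 CPM in SPF, so all libraries matched their labels for the RFP reporter's gene. Among markers of other cells, the summed level of 7 B cell genes was 5.05 to 6.13 CPM in DP and 3.44 to 7.45 CPM in SPR, against 16.7 to 32.6 CPM in SPF. The sum for CD8 and NK cell genes was 33.9 to 37 CPM in DP, 23.2 to 35.2 CPM in SPR and 26.1 to 45.8 CPM in SPF, with Klrb1c at 0. The sum for myeloid genes was 105 to 119 CPM in DP, 122 to 185 CPM in SPR and 80.8 to 124 CPM in SPF, with Csf1r and Cd14 at 0, so SPR lay above DP and SPF overlapped both. Most of that sum was Cst3, at 102 to 116 CPM in DP, 118 to 182 CPM in SPR and 69.4 to 119 CPM in SPF. Itgam stood at 11.3, 4.19 and 3.25 CPM in SPF, above every DP and SPR library, and the other myeloid genes reached at most 2.1 CPM. Erythroid genes reached 0.669 CPM in DP, 0.43 CPM in SPR and 20 CPM in SPF, with Hba-a2 at 0. The B cell sums were thus highest in SPF, where most of the called genes below were lower, and the part of these markers in the results was not tested. In a sorted bulk sample, fewer cells that express a gene and less of its RNA per cell cannot be told apart.

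Most changes separated the Th17 culture from the Treg culture, and most ran one way. A gene was called where edgeR's quasi-likelihood test gave a Benjamini-Hochberg adjusted p under 0.05 over 9310 tested genes. In DP against SPF, 12 of 70 members were called (17.1%, against 13.7% of all tested genes), 11 of them higher (15.7%, against 7.55%) and 1 lower (1.43%, against 6.18%). In SPR against SPF, 15 were called (21.4%, against 16.7%), 14 of them higher (20%, against 9.14%) and 1 lower (1.43%, against 7.58%). The median log2 fold change of the members was 0.31 in DP against SPF and 0.27 in SPR against SPF, beside 0.01 and 0 over all tested genes. A positive log2 fold change was found for 49 members in DP (70%, against 50.7% of all tested genes) and for 48 in SPR (68.6%, against 50.1%). The CPM of 29 members lay above every SPF library in DP (41.4%, against 19.2% of all tested genes), and those of 28 did so in SPR (40%, against 19.9%). The comparisons share the SPF libraries. Of the 70 members, 4 (Eef2k, Eif2b3, Polr1b and Wdr12) passed the filter only through DP or SPR libraries, as did 9.72% of all tested genes, so the filter favoured their being higher there, and none of them was called.

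The number of calls depended on single libraries. In DP against SPF it was 6 without DP 2, 7 without SPF 1, 5 without SPF 2 and 1 without DP 2 and DP 3 together, when Eif4e3 remained with DP 1 as the lone DP library. In SPR against SPF it was 8 without SPR 1, 5 without SPR 2, 9 without SPR 3, 5 without SPF 1 and 7 without SPF 2. Of the 27 member calls against SPF, 9 held with any 1 library left out and under every other setting of normalisation, filter, tool and block: those of Eif1a, Eif4e3 and Nop58 in both comparisons, of Abce1 in DP and of Eef2kmt and Eef1akmt1 in SPR.

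**Figure D1:**
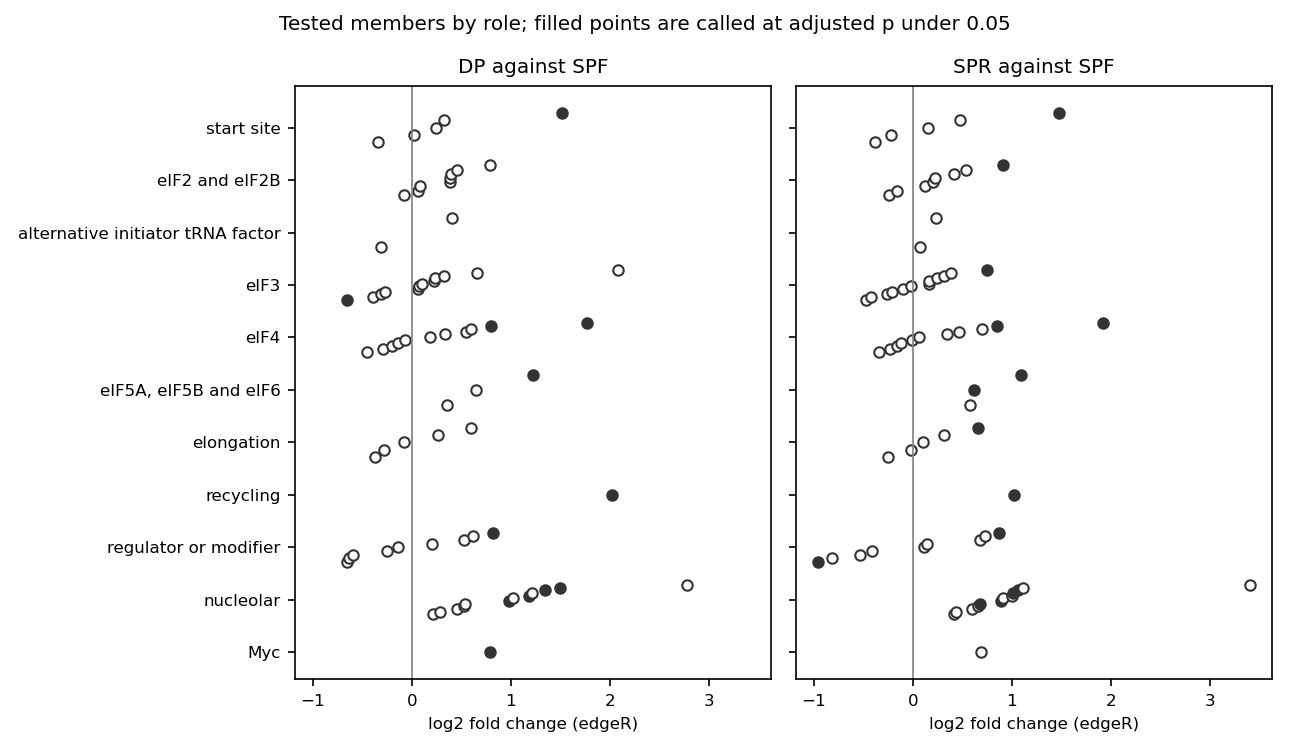
Log2 fold changes of the tested members in DP against SPF (left) and SPR against SPF (right), 1 point per gene, ordered by role from start-site factors (top) to Myc (bottom), with the pseudogene left out. Filled points passed the test, and all 12 nucleolar members lie to the right of 0 in both panels, though the rightmost, Npm1, is at -0.83 in SPR without SPR 3.

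Between DP and SPR cells of the same culture few members separated. With all 9 libraries no member was called, where 1 of all tested genes was (0.0107%), Foxp3. At an unadjusted p under 0.05 there were 5 members (7.14%, against 6.57%), DESeq2 called 1 (Eif3e), and the median log2 fold change was -0.05, beside -0.01 over all tested genes. Same-numbered DP and SPR libraries varied together, so they were also compared as 3 pairs, the 6 of them fitted with a term for the pair. In that fit 324 genes were called (3.48% of all tested). Among them were 2 members, Abce1 and Eif3e, both higher in DP (2.86% of 70, against 1.97% of all tested genes higher). By pairs, 10 members were higher in DP in 3 of 3 pairs (14.3%, against 21.7% of all tested genes) and 6 were lower in 3 of 3 (8.57%, against 15.3%).

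The nucleolar members were mostly higher in the Th17 culture. All 12 had a positive log2 fold change in DP against SPF and in SPR against SPF, also with RLE factors and with library totals, but Npm1 turned to -0.83 in SPR against SPF without SPR 3, and Polr1b and Wdr12 passed the filter only through the Th17-culture groups. The other 9 were positive in both comparisons, with medians of 0.54 in DP and 0.89 in SPR. In each comparison 4 of the 12 passed the test as higher (beside 7.55% of all tested genes in DP and 9.14% in SPR). The sum of 11 of them, without Npm1, was 1516 ± 185 CPM in DP and 1534 ± 189 CPM in SPR, against 1025 ± 83.8 CPM in SPF (SD, n = 3 each). Most of each sum was Ncl, which was not called, with means of 965, 1033 and 749 CPM in DP, SPR and SPF. In DP against SPR the median of the 12 was 0.03 and 6 of them were positive, where 48.6% of all tested genes were.

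Nop58 and Nop56 are the core proteins of box C/D small nucleolar ribonucleoproteins, which place methyl groups on rRNA. Nop58 (chr1:59684971-59719044, GRCm38) stood at 84.1, 108 and 84.3 CPM in DP and at 65.6, 67.6 and 60.6 CPM in SPR, against 27.2, 39.1 and 36.2 CPM in SPF. The 3 groups did not overlap, with DP highest and SPF lowest. Its log2 fold change was 1.35 (SE 0.189, edgeR adjusted p = 0.00169) in DP against SPF and 0.89 (SE 0.189, adjusted p = 0.00934) in SPR against SPF, while DP against SPR gave 0.46 (SE 0.181, adjusted p = 0.693, and 0.121 with pairs). Nop56 stood at 76.6, 146 and 56.9 CPM in DP and at 69.1, 73.6 and 50 CPM in SPR, against 37.2, 22.8 and 34.4 CPM in SPF. DP and SPR both lay above SPF, and the change was called in DP (1.5, SE 0.325, adjusted p = 0.0141) but not in SPR (1.00, SE 0.324, adjusted p = 0.0565). The Nop56 call was lost without SPF 2 (adjusted p = 0.0635). Nop56 overlaps Idh3b on the opposite strand, and 5 pseudogenes match its 3′ end, so some of its reads may be placed elsewhere.

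Fbl encodes fibrillarin, the methyltransferase of the same particles. It stood at 56.4, 41.7 and 58.2 CPM in DP and at 49.5, 102 and 77.7 CPM in SPR, against 27.2, 38.6 and 41.8 CPM in SPF. SPR lay above SPF, and the lowest DP library lay just under the highest SPF library. The change was called in SPR (1.06, SE 0.277, adjusted p = 0.0249) and missed the threshold in DP (0.46, SE 0.283, adjusted p = 0.297). The difference between DP and SPR was -0.61 (SE 0.273, adjusted p = 0.756). The SPR call was lost without SPR 2, SPR 3, SPF 1 or SPF 2, with an adjusted p of up to 0.1.

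Dkc1 encodes dyskerin, the pseudouridine synthase of box H/ACA particles, and Nolc1 a nucleolar chaperone of such particles. Dkc1 (chrX:75095854-75109777) stood at 40.8, 64.2 and 35.4 CPM in DP and at 38.7, 49.1 and 50.8 CPM in SPR, against 20.9, 19.5 and 27.4 CPM in SPF. Both were above every SPF library, by 0.98 (SE 0.251, adjusted p = 0.0274) in DP and 1.01 (SE 0.249, adjusted p = 0.0187) in SPR on the log2 scale. Nolc1 stood at 74.5, 129 and 70.9 CPM in DP and at 63.9, 113 and 45.7 CPM in SPR, against 39.5, 40 and 35.8 CPM in SPF. Replicate 2 was the highest for Nolc1 in both Th17-culture groups, and the change was called in DP (1.18, SE 0.327, adjusted p = 0.0379) but not in SPR (0.91, SE 0.325, adjusted p = 0.0799). The Dkc1 calls were lost without DP 2, SPF 1 or SPF 2 in DP (adjusted p up to 0.11) and without SPR 2, SPR 3, SPF 1 or SPF 2 in SPR (up to 0.0743). Dkc1 overlaps Mpp1 on the opposite strand. The Nolc1 call was lost with any library left out other than DP 1 (adjusted p up to 0.157).

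Pes1, Bop1 and Wdr12 form the PeBoW complex of large subunit assembly, and Rrs1 acts in the same path. Pes1 stood at 63.9, 69.9 and 66.9 CPM in DP and at 70.5, 79.2 and 63.8 CPM in SPR, against 37.2, 56.3 and 37.2 CPM in SPF. Neither group overlapped SPF, and the change was called in SPR (0.68, SE 0.199, adjusted p = 0.0401) and not in DP (0.54, SE 0.201, adjusted p = 0.0985). The SPR call was lost with any library left out other than SPF 2 (adjusted p up to 0.132). Bop1, Wdr12 and Rrs1 gave 0.53, 1.02 and 0.21 in DP and 0.42, 0.66 and 0.60 in SPR, without a call. Wdr12 rests on 2.72 to 10.6 CPM per library, and 4 other genes, 2 of them pseudogenes, hold a stretch near-identical to its 3′ end.

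Polr1b encodes the second largest subunit of RNA polymerase I. It stood at 7.99, 17.2 and 12 CPM in DP and at 8.03, 13.8 and 12 CPM in SPR, against 3.63, 6.05 and 5.58 CPM in SPF. All libraries of the Th17 culture were above those of SPF, yet neither change passed the test (1.21, SE 0.411, adjusted p = 0.076 in DP and 1.11, SE 0.405, adjusted p = 0.0843 in SPR). Ncl, which encodes the abundant nucleolar protein nucleolin, stood at 939, 1036 and 920 CPM in DP and at 992, 1135 and 970 CPM in SPR, against 869, 689 and 689 CPM in SPF. Its groups did not overlap either, with smaller differences of 0.29 (SE 0.155, adjusted p = 0.225) and 0.44 (SE 0.155, adjusted p = 0.0743).

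**Figure D2:**
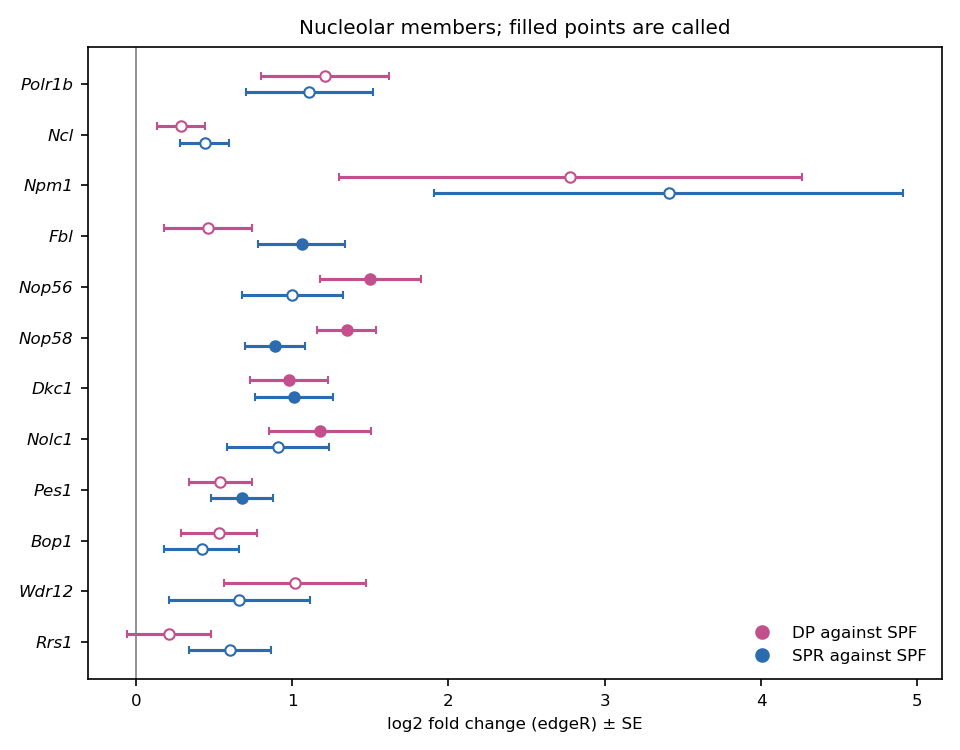
Log2 fold change and SE of the 12 nucleolar members in DP against SPF (upper point of each pair) and SPR against SPF (lower point). Filled points passed the test, and Npm1, with SEs of 1.48 and 1.5, has the widest bars.

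Abce1 encodes the ATPase that splits ribosomes after termination, and as with Nop58 its 3 groups did not overlap. Eef1akmt1, Eif2b1 and Eif4e2 also had every DP library above every SPR library, without a call in that comparison. The share of all tested genes that did so is not given here. Abce1 (chr8:79683462-79711740) stood at 53.8, 84.6 and 47.5 CPM in DP and at 31.1, 27.1 and 31.4 CPM in SPR, against 8.17, 16.3 and 19.1 CPM in SPF. Every DP library was above every SPR library, and every SPR library above every SPF library. The log2 fold change was 2.02 (SE 0.312, edgeR adjusted p = 0.00304) in DP against SPF and 1.02 (SE 0.313, adjusted p = 0.0475) in SPR against SPF. In DP against SPR it was 1.00 (SE 0.289, adjusted p = 0.474) with 9 libraries and 0.97 (SE 0.204, adjusted p = 0.0258) with pairs, higher in 3 of 3 pairs. Without 1 pair the value stayed between 0.65 and 1.16, and the call was lost without pair 1 (adjusted p = 0.076) or pair 2 (0.0527). Over all alternatives the adjusted p of this difference ran from 0.0156 to 1. The SPR call against SPF was lost without SPR 1, SPR 2, SPR 3, SPF 1 or SPF 2 (adjusted p up to 0.121). Abce1 overlaps Gm27006 on the opposite strand, and whether the counting used strand is not stated.

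**Figure D3:**
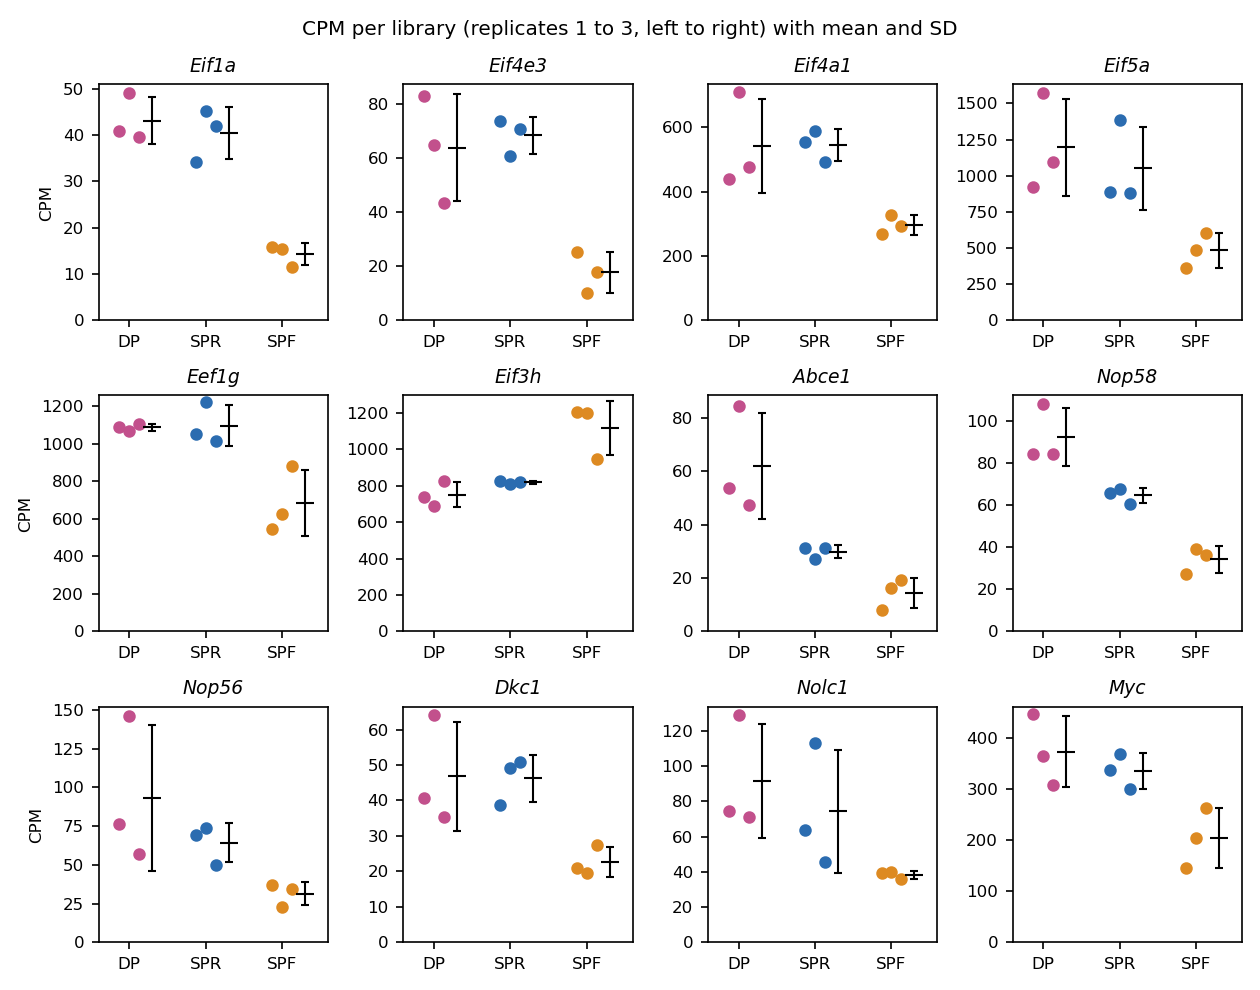
CPM of 12 members in each library, with DP, SPR and SPF from left to right, replicates 1 to 3 as points, and the mean with its SD beside them. Abce1 and Nop58 show no overlap between the 3 groups, though neither was called in DP against SPR with all 9 libraries. Eif1a, Eif4e3 and Eif4a1 show DP and SPR at a like height above SPF.

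Among the start-site factors, Eif1a stood apart. It encodes an eIF1A protein, which helps the small subunit scan for the start codon. It stood at 40.8, 49 and 39.5 CPM in DP and at 34.2, 45.2 and 42 CPM in SPR, against 15.9, 15.4 and 11.6 CPM in SPF. No Th17-culture library came below 34.2 CPM and no SPF library above 15.9 CPM, at 1.52 (SE 0.211, adjusted p = 0.00166) in DP and 1.48 (SE 0.209, adjusted p = 0.00111) in SPR. The X-linked copy Eif1ax was below the filter, at 4.21, 5.72 and 4.01 CPM in DP, 3.84, 1.72 and 2.13 CPM in SPR and 3.18, 1.4 and 0.465 CPM in SPF. Eif1, which encodes the partner that guards start codon choice, gave -0.34 (SE 0.156, adjusted p = 0.173) and -0.22 (SE 0.155, adjusted p = 0.37). A stretch near-identical to the 3′ end of Eif1 lies in 12 other genes, 11 of them pseudogenes. Eif5, the activator of the eIF2 GTPase, gave 0.33 and 0.15, without a call.

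The eIF2 and eIF2B genes deliver the initiator tRNA and recharge eIF2 with GTP. Of 8 tested, 1 was called in SPR against SPF (beside 16.7% of all tested genes) and none in DP against SPF (beside 13.7%). The called gene, Eif2s2 (the β subunit), stood at 95.5, 151 and 70.2 CPM in DP and at 96, 125 and 113 CPM in SPR, against 47.2, 54 and 73.9 CPM in SPF. SPR lay above SPF and DP overlapped it, with 0.91 (SE 0.268, adjusted p = 0.0402) in SPR and 0.79 (SE 0.27, adjusted p = 0.0779) in DP. That call was lost without any 1 SPR library, SPF 1 or SPF 2 (adjusted p up to 0.123), and 1 pseudogene matches the 3′ end of Eif2s2. The α subunit gene Eif2s1 had only 0.465 to 4.09 CPM in any library and was not tested. The other members of this role ranged from -0.08 to 0.46 in DP and from -0.24 to 0.54 in SPR.

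The eIF3 genes, which code for the scaffold of the initiation complex, gave 1 call of 12 tested in each comparison, in opposite directions. Over all tested genes 13.7% were called in DP and 16.7% in SPR. The eIF3 sum was 3738 ± 162 CPM in DP and 3855 ± 222 CPM in SPR, against 3900 ± 288 CPM in SPF. Eif3h was the 1 member lower in DP, at 739, 687 and 826 CPM in DP and 823, 810 and 819 CPM in SPR, against 1204, 1201 and 946 CPM in SPF. Both groups lay below SPF, at -0.65 (SE 0.165, adjusted p = 0.0274) in DP and -0.47 (SE 0.164, adjusted p = 0.0714) in SPR. Eif3b, by contrast, stood at 198, 251 and 197 CPM in DP and at 198, 303 and 165 CPM in SPR, against 117, 146 and 125 CPM in SPF. It was called in SPR (0.75, SE 0.228, adjusted p = 0.0454) and not in DP (0.66, SE 0.229, adjusted p = 0.0799). The call of Eif3h was lost without DP 1, DP 2, SPF 1 or SPF 2 (adjusted p up to 0.102), and that of Eif3b with any library left out other than SPR 3 (up to 0.173).

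The eIF4 genes code for cap binding and helicase factors, and 2 of the 11 tested were called higher against SPF in both comparisons. Over all tested genes 7.55% were called higher in DP and 9.14% in SPR. The eIF4 sum was 2099 ± 260 CPM in DP and 2001 ± 158 CPM in SPR, against 1681 ± 11.5 CPM in SPF. Eif4a1 (chr11:69666936-69672423), the helicase of the cap-binding complex eIF4F, stood at 440, 711 and 478 CPM in DP and at 554, 590 and 492 CPM in SPR, against 268, 329 and 293 CPM in SPF. No library overlapped, with 0.80 (SE 0.206, adjusted p = 0.0289) in DP and 0.85 (SE 0.206, adjusted p = 0.0174) in SPR. Eif4e3, a cap-binding relative of eIF4E, stood at 82.9, 64.6 and 43.5 CPM in DP and at 73.6, 60.7 and 70.5 CPM in SPR, against 25.4, 10.2 and 17.7 CPM in SPF. Its change was the largest of the called members in SPR, at 1.92 (SE 0.297, adjusted p = 0.00186), beside 1.77 (SE 0.299, adjusted p = 0.00443) in DP. Eif4e3 overlaps the gene models Gm20696 and Gm44104 on its own strand, so its reads could be shared with them. The Eif4a1 calls were lost without DP 2, SPF 1 or SPF 2 in DP (adjusted p up to 0.103) and without SPR 1, SPR 2 or SPF 1 in SPR (up to 0.0629).

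The other eIF4F genes did not pass the test. Eif4e, the cap-binding subunit, stood at 7.57, 10.6 and 0 CPM in DP and at 8.37, 8.61 and 9.31 CPM in SPR, against 7.71, 6.05 and 11.2 CPM in SPF. The count of 0 in DP 3, the library with the lowest total, allows a level of up to 2.01 CPM, counting error alone. The scaffold gene Eif4g1 gave 0.34 and 0.47, and the helicase copy Eif4a2 0.60 and 0.70 (adjusted p = 0.25 and 0.171). The repressor gene Eif4ebp1, which the naming rule leaves out, stood at 155, 191 and 167 CPM in DP and at 249, 362 and 233 CPM in SPR, against 62.6, 59.5 and 94.3 CPM in SPF. Its 3 groups did not overlap, with SPR highest, and it was called at 1.17 (SE 0.23, adjusted p = 0.00875) in DP and 1.94 (SE 0.232, adjusted p = 0.00049) in SPR. In DP against SPR it was -0.77 (SE 0.223, adjusted p = 0.493) with 9 libraries and -0.75 (SE 0.143, adjusted p = 0.0176) with pairs, a call lost without pair 1, and its adjusted p over all alternatives ran from 0.00413 to 1. The related Eif4ebp2 leaned the other way, at -0.59 (adjusted p = 0.0905) and -0.53 (adjusted p = 0.115).

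Eif5a codes for the factor that relieves stalled ribosomes and carries the modified residue hypusine. It lies at chr11:69916714-69921958 and stood at 925, 1570 and 1094 CPM in DP and at 888, 1383 and 880 CPM in SPR, against 360, 490 and 605 CPM in SPF. Replicate 2 was the highest in both Th17-culture groups, and all of their libraries exceeded SPF, by 1.23 (SE 0.272, adjusted p = 0.0155) in DP and 1.09 (SE 0.271, adjusted p = 0.0199) in SPR. The DP call was lost without DP 2 or SPF 2 (adjusted p up to 0.0628) and the SPR call without SPR 2, SPF 1 or SPF 2 (up to 0.0848). Eif6, which keeps large subunits apart until they are mature, was called in SPR (0.62, SE 0.185, adjusted p = 0.0431) and not in DP (0.36, SE 0.186, adjusted p = 0.219), and lost that call with any 1 library left out (adjusted p up to 0.163). Eif5b, the factor that joins the subunits, gave 0.65 (adjusted p = 0.102) and 0.58 (adjusted p = 0.125).

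The promoters of these genes were searched for the E-box CACGTG, the DNA sequence that MYC binds with MAX. The 6 stretches printed here are those of the called members Eif4a1 and Eif5a and of the eIF4F partners Eif4e and Eif4g1, with the E-box in capitals, read 5′ to 3′ on the gene's own strand from the RefSeq promoter table of GRCm38.p6.
Eif4a1, chr11:69672595-69672624, minus strand: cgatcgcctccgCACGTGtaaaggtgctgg
Eif5a, chr11:69921443-69921472, minus strand: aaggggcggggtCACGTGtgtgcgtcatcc
Eif5a, chr11:69920791-69920820, minus strand: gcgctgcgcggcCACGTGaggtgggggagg
Eif4e, chr3:138527028-138527057, plus strand: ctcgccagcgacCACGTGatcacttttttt
Eif4e, chr3:138527192-138527221, plus strand: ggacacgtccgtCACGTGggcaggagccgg
Eif4g1, chr16:20672661-20672690, plus strand: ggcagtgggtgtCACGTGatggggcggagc
CACGTG reads the same on both strands. It lay in the 250 bases before an annotated start in 11 of the 58 members found in the table (19.0%), against 6.86% of 27025 genes in the table and 10.7% of the 7113 that passed the count filter. It was found in 2 of the 11 called members with a promoter there (18.2%), and in none of 8 nucleolar members. The promoter sequences ran to 300 bases, past the start. Over all 300 bases CACGTG lay in 13 of the 58 members (22.4%), against 12.6% of the 7113 genes. That window held it in 3 of the 11 called members (27.3%) and in 1 of the 8 nucleolar members (12.5%), Pes1, just after its start. The sequence thus stands before Eif5a, which was called, and before Eif4e, which was not, and a match is no more than a match of letters. The terminal oligopyrimidine start that marks many translation genes is a C followed by 4 bases that are each C or T. It stood at an annotated start on the coding strand in 2 of 58 members (3.45%), Eif2s3x and Eif3f, against 3.01% of the 7113 genes. Only the bases at the annotated start were read, and where transcripts begin in these cells was not measured. An annotated start that lies off the true start would hide a match. These counts therefore cannot tell how many members carry such a start, or whether members differ from other genes in it.

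The elongation factors overlapped between the groups. Their sum was 7283 ± 721 CPM in DP and 8035 ± 680 CPM in SPR, against 7343 ± 889 CPM in SPF, ranges that overlap. Eef2, the translocase, stood at 3510, 2866 and 2500 CPM in DP and at 3333, 4041 and 2936 CPM in SPR, against 3130, 4061 and 3027 CPM in SPF, with -0.28 (SE 0.188, adjusted p = 0.331) and -0.02 (SE 0.188, adjusted p = 0.969). Eef1b2, an exchange factor subunit, gave -0.08 and 0.10, and Eef1a1, the carrier of aminoacyl-tRNA, 0.27 and 0.31, with 10 near-identical copies of its 3′ end. The exchange factor subunit gene Eef1g was the exception, at 1090, 1070 and 1106 CPM in DP and 1053, 1223 and 1018 CPM in SPR, against 547, 626 and 883 CPM in SPF. It was called in SPR (0.66, SE 0.19, adjusted p = 0.0379) and missed the threshold in DP (0.60, SE 0.19, adjusted p = 0.0617), and the SPR call was lost with any library left out other than SPF 3 (adjusted p up to 0.131).

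Of 9 tested regulators and modifying enzymes, 1 was called in DP against SPF (beside 13.7% of all tested genes), as higher. In SPR against SPF 1 was called higher and 1 lower (beside 16.7% of all tested genes). Eef2kmt, a lysine methyltransferase of eEF2, stood at 48, 43.3 and 52.2 CPM in DP and at 44, 55.5 and 44.2 CPM in SPR, against 25.9, 24.2 and 27 CPM in SPF. The libraries of SPF were tightly grouped and below all others, with 0.82 (SE 0.176, adjusted p = 0.0132, and 0.0535 without SPF 2) in DP and 0.87 (SE 0.174, adjusted p = 0.007) in SPR. Eef2kmt overlaps Alg1 on the opposite strand. Eef1akmt1, a lysine methyltransferase of eEF1A, went the other way, at 91.7, 81.7 and 96.3 CPM in DP and 78.2, 63.7 and 64.9 CPM in SPR, against 123, 168 and 104 CPM in SPF. It was called in SPR (-0.96, SE 0.204, adjusted p = 0.0094) and not in DP (-0.63, SE 0.204, adjusted p = 0.0643). The eEF2 kinase gene Eef2k gave 0.62 and 0.73, and the eIF2α kinase gene Eif2ak2, outside the rule, 0.13 and -0.43, without a call.

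Myc stood at 446, 365 and 308 CPM in DP and at 337, 369 and 299 CPM in SPR, against 145, 205 and 263 CPM in SPF. Neither group overlapped SPF, with 0.79 (SE 0.224, adjusted p = 0.0409) in DP and 0.69 (SE 0.224, adjusted p = 0.0576) in SPR. The DP call was lost without any 1 DP library, SPF 1 or SPF 2 (adjusted p up to 0.117), with a replicate block over all 9 libraries (0.0514) and in fits of DP and SPF alone (0.0853, and 0.144 with the block). In DP against SPR it was 0.10, with a 95% interval from -0.39 to 0.59. Of 11 other tested genes of the MYC network, Mxd4, whose protein pairs with MAX and represses, was the 1 called against SPF (9.09% of the list, below the 13.7% and 16.7% of all tested genes). It stood at 156, 118 and 167 CPM in DP and at 142, 111 and 140 CPM in SPR, against 413, 515 and 311 CPM in SPF, or -1.57 (SE 0.232, adjusted p = 0.00248) and -1.68 (SE 0.232, adjusted p = 0.000976).

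Some members were very uneven among the libraries of a group. Npm1, which encodes the nucleolar chaperone nucleophosmin, stood at 16.8, 258 and 330 CPM in DP and at 17.4, 15.1 and 858 CPM in SPR, against 20.4, 8.37 and 56.2 CPM in SPF. Its log2 fold change in SPR against SPF was 3.41 (SE 1.5, adjusted p = 0.143) with all libraries and -0.83 without SPR 3. Eif3e stood at 7.15, 53.5 and 76.9 CPM in DP and at 6.63, 6.46 and 9.84 CPM in SPR, against 11.3, 6.05 and 13.5 CPM in SPF. DP 1 was as low as the other groups, and DP 2 and DP 3 alone were high. In DP against SPR, Eif3e gave 2.5 (SE 0.661, adjusted p = 0.468) with 9 libraries and 2.32 (SE 0.409, adjusted p = 0.011) with pairs, a call lost without pair 3 (adjusted p = 0.141), and its adjusted p over all alternatives ran from 6.35e-11 to 1. Eif2a, an initiator tRNA factor other than eIF2, stood at 32, 47.8 and 47.5 CPM in DP and at 23, 7.32 and 74.5 CPM in SPR, against 28.1, 13 and 50.2 CPM in SPF.

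DP 2 and DP 3 also stood apart in mitochondrial transcripts, and SPR 3 did not. The mitochondrial rRNA mt-Rnr2 stood at 67.3, 572 and 1712 CPM in DP and at 61.4, 25 and 32.7 CPM in SPR, against 186, 93 and 215 CPM in SPF, high in DP 2 and DP 3 as Eif3e was. Over the 9 libraries the genes most like Eif3e among 6343 were mt-Nd5 (Pearson r = 0.977 of log2 values) and mt-Cytb (0.966), and those most like Npm1 were Skp1a (0.963) and Psmc6 (0.955). These are descriptions over 9 libraries that differ in depth and, for SPF, in culture. In DP against SPR with 1 DP library left out, Eif3e was called without DP 1 and not without DP 2 or DP 3. The part of DP 2 and DP 3 in the Eif3e difference was not tested beyond leaving out libraries or pairs. Neither Npm1 nor Eif3e overlaps another gene or has a near-identical 3′ copy in the annotation.

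**Figure D4:**
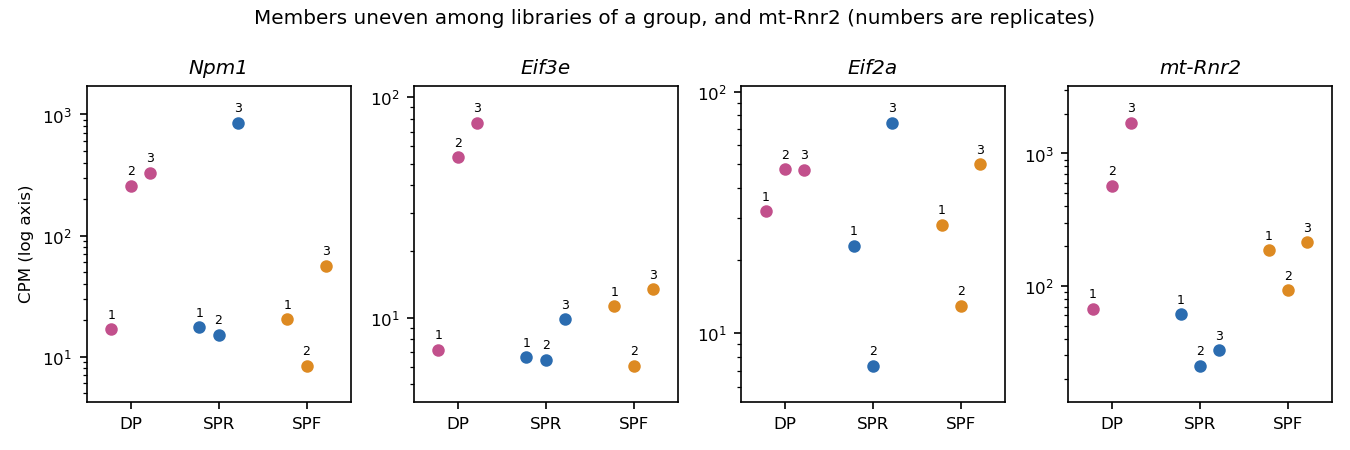
CPM of Npm1, Eif3e, Eif2a and the mitochondrial rRNA mt-Rnr2 in each library on log axes, with DP, SPR and SPF from left to right and replicate numbers at the points. Eif3e and mt-Rnr2 are high in DP 2 and DP 3, whereas Npm1 is high there and in SPR 3, at 858 CPM.

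The other genes of the same pathways were also called mostly as higher against SPF. In 5 lists of polymerase I transcription, small subunit processome, large subunit assembly, small nucleolar ribonucleoprotein and termination genes, with no gene in common with the members, 21 of 110 tested genes were higher in DP against SPF (beside 7.55% of all tested genes) and none was lower. In SPR against SPF 21 were higher (beside 9.14%) and 1, Taf1c, was lower. The median log2 fold change of the 110 was 0.47 and 0.43, and no gene was called in DP against SPR, where the unpaired and paired medians were 0.01. Some of the 110, Rrp12, Utp20, Pwp2 and Shq1 among them, passed the filter only through DP or SPR libraries, as did 9.72% of all tested genes. The filter favoured their being higher there, and their share of the 110 and of its calls was not counted. Large subunit assembly genes gave 10 of 40 higher in DP and 11 of 40 in SPR, and small subunit processome genes 5 and 7 of 37. Small nucleolar ribonucleoprotein genes gave 2 of 9 in each comparison. Polymerase I genes gave 2 of 14 higher in DP and 1 higher and 1 lower in SPR, around medians of -0.13 and -0.03. Termination genes gave 2 of 10 in DP and none in SPR.

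The leading genes of these lists had clear levels. Rrp1b, a nucleolar large subunit factor, stood at 124, 120 and 84.3 CPM in DP and at 73.6, 112 and 76.6 CPM in SPR, against 29.9, 26.1 and 32.5 CPM in SPF (1.82, SE 0.216, adjusted p = 0.000651 in DP and 1.54, SE 0.215, adjusted p = 0.00105 in SPR). Cd3eap, a subunit gene of RNA polymerase I, stood at 80.4, 82.1 and 83.6 CPM in DP and at 69.8, 96.4 and 85.4 CPM in SPR, against 22.2, 25.6 and 32.1 CPM in SPF (1.55 and 1.63). Gnl3, which encodes nucleostemin, gave 1.59 (SE 0.306, adjusted p = 0.00825) and 1.63 (SE 0.303, adjusted p = 0.00484), and Tsr1, a small subunit factor, 1.32 and 1.37. In each of these genes every DP and SPR library lay above every SPF library. Of the termination genes, Etf1 and Gspt1 encode the release factors eRF1 and eRF3. Gspt1 was 0.86 (SE 0.206, adjusted p = 0.0219) higher and Etf1 0.75 (SE 0.223, adjusted p = 0.049) higher in DP against SPF. The Gspt1 call was lost without DP 2, DP 3, SPF 1 or SPF 2 (adjusted p up to 0.0857) and the Etf1 call without DP 1, DP 2, SPF 1 or SPF 2 (up to 0.172). The Etf1 call was also lost with RLE factors (0.0524), with filterByExpr (0.0513), with the block over 9 libraries (0.0571) and in fits of DP and SPF alone (0.0781, and 0.145 with the block).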

How the data were processed

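Raw counts per gene in the 9 libraries, as deposited, were produced on mm10 with tools the submitters' notes name as cutadapt, STAR, SAMtools and HTSeq. Versions, annotation, strand setting and use of molecular identifiers: not given in the sources used here. A nameless line of totals (1) and a nameless column (1) were left out.

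Genes above 10 CPM in at least 1 library (9310) entered the quasi-likelihood test of edgeR 4.0.16 (R 4.3.3; TMM, all 9 libraries, 6 residual degrees of freedom), called at an adjusted p under 0.05 and checked on simulated counts. The study calls its replicates biological repeats and independent, without saying whether they came from separate animals, so p-values measure the spread between these samples. An exact permutation test of 3 against 3 cannot go below p = 0.1 (two-sided).

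Deviations from group means correlated at 0.222, 0.401 and 0.407 for same-numbered DP and SPR libraries, which were therefore also fitted as pairs (2 residual degrees of freedom). For DP and SPF the values were 0.124, -0.0152 and -0.151, and for SPR and SPF 0.0913, 0.0954 and -0.12, so these were not paired.

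Members and lists were chosen with earlier results of these data known. Named are called members, with CPM for those averaging at least 20 CPM, a fixed set of members whether called or not, and leading called genes of each list. Eif3e, Eif2a and the genes most like Npm1 and Eif3e were picked after their values were seen, as were the settings without DP 2 and DP 3 and without a pair. Coordinates are from GENCODE M21 (GRCm38), promoters from RefSeq, and near-identical copies (95% identity over 200 of the last 300 bases) from BLAST 2.17.0. Of the 70 tested members, 41 overlap another annotated gene on either strand, and only some of these overlaps are named above. The called members Pes1, Eif2s2 and Eif6 also overlap a gene on the opposite strand. The alternatives, DESeq2 1.42.0 among them, are listed with their effect in the closing section. Some marker genes are not reported here.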

Additional observations from a re-analysis of the deposited data

How the results depend on the processing

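Of the 27 member calls against SPF, none was lost under DESeq2, RLE factors, library totals or no filter, 1 under filterByExpr, 1 with a replicate block over all 9 libraries, 9 in fits of only the groups compared and 11 when those also had the replicate block. Called members in DP against SPR numbered 1 with DESeq2, 2 with no filter, 2 with the paired replicate block (1 or 2 without a pair, chosen after seeing the data) and 0 to 1 with 1 library left out, against 0. Called genes there numbered 44 with DESeq2, 4 with library totals, 211 with no filter, 2 in the fit of DP and SPR alone, 7 with the block over 9 libraries, 324 with the paired block and 1 to 6 with 1 library left out, against 1. In DP against SPF, called members numbered 19 with no filter, 6 with the block in the groups compared, 7 where a fold above 2 was required, 5 to 17 with 1 library left out and 1 without DP 2 and DP 3, against 12. Called genes there numbered 2137, 430, 828, 553 to 1822 and 114 in the same order, against 1278, and 65% of them were higher with library totals, against 55% with TMM. In SPR against SPF, called members numbered 6 where a fold above 2 was required and 5 to 16 with 1 library left out, against 15. Called genes there numbered 2479 with no filter, 1022 with the block in the groups compared and 836 to 2059 with 1 library left out, against 1557. Of the other named genes in DP against SPF, Gnl3, Tsr1, Gspt1, Rragd and Tsc1 lost the call with the block in the groups compared (adjusted p from 0.0542 to 0.0872), as did Rragd (0.073) and Tsc1 (0.0861) in SPR against SPF. The eIF4 sum in SPF was 1719 CPM with TMM-scaled totals, against 1681. The Npm1 change in SPR against SPF ranged from -0.83 to 4.36 with 1 library left out and was reversed without SPR 3. The cause of these differences was not tested, apart from fewer libraries in the fits that leave some out. Genes near 10 CPM, such as Polr1b, Wdr12 and Eif4e, rest on few counts.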

Other observations

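Genes of mTORC1 signalling, the pathway that couples nutrients to cap-dependent translation, gave 2 higher and 2 lower of 22 in DP against SPF and 3 higher and 2 lower in SPR against SPF, around medians of -0.24 and -0.19. These are 18.2% and 22.7% of the list, beside 13.7% and 16.7% of all tested genes, and they include Eif4ebp1, whose values are given above with the eIF4 genes. Rragd, which encodes a Rag GTPase that recruits mTORC1 to lysosomes, stood at 27.3, 24.5 and 24.7 CPM in DP and at 14.7, 25.4 and 16.5 CPM in SPR, against 3.63, 6.51 and 11.6 CPM in SPF. It was 1.74 (SE 0.375, edgeR adjusted p = 0.0138) higher in DP and 1.34 (SE 0.374, adjusted p = 0.0327) higher in SPR. Tsc1, which encodes part of the complex that restrains mTORC1, stood at 29.9, 22.9 and 27.4 CPM in DP and at 26.9, 27.5 and 29.5 CPM in SPR, against 46.3, 41.4 and 41.4 CPM in SPF. It gave -0.76 (SE 0.177, adjusted p = 0.0191) in DP and -0.64 (SE 0.173, adjusted p = 0.0291) in SPR. In both genes the Th17-culture libraries did not overlap SPF. Lamtor4 was also called lower in DP (-0.75, SE 0.191, adjusted p = 0.0278) and not in SPR (-0.54, adjusted p = 0.073). Mknk2 was also called lower in SPR (-0.53, SE 0.152, adjusted p = 0.0359) and not in DP (-0.3, adjusted p = 0.212). Whether the Lamtor4 and Mknk2 calls held with a library left out is not given here. The Rragd calls were lost without SPF 2 in DP (adjusted p = 0.0546) and without SPR 2, SPR 3, SPF 1 or SPF 2 in SPR (up to 0.123). The Tsc1 calls were lost without DP 2, SPF 1 or SPF 2 in DP (up to 0.0725) and without any 1 SPR library, SPF 1 or SPF 2 in SPR (up to 0.0949).

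The paired fit of DP against SPR called 2 of 11 tested genes of the MYC network (18.2%, beside 3.48% of all tested genes). Max, the partner of MYC, stood at 144, 105 and 148 CPM in DP and 74.7, 40 and 111 CPM in SPR, higher in DP in 3 of 3 pairs (0.85, SE 0.173, adjusted p = 0.0239). Mxd1, a repressor that also pairs with MAX, stood at 144, 95.6 and 133 CPM in DP and 71.9, 75.3 and 87.2 CPM in SPR (0.61, SE 0.152, adjusted p = 0.0485). With all 9 libraries neither was called, nor was either with a replicate block over all 9 (adjusted p = 0.434 for Max and 0.347 for Mxd1). Without 1 pair, Max was not called without pair 1, and Mxd1 without pair 1 or pair 3.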
